A study of Gallus gallus with 12 samples.

Results

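Transcripts whose level decreased at each stage of late chick lung development were selected from the expression arrays. To be a member, a transcript had to read at least 8 on the log2 scale on each of the 12 arrays. Every array at embryonic day (E)16 had to lie below every array at E14, and every array at E18 below every array at E16. The mean at E15 had to fall between the means of E14 and E16, and both falls, E14 to E16 and E16 to E18, had to reach 0.4 log2 units. Of 21390 transcripts, 13860 passed the floor, 1093 of these passed the order of the arrays, 904 also the place of E15, and 214 also the size of both falls. The 200 with the largest fall between E14 and E18 were kept, and the other 14 met the conditions with a smaller fall.

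RNA came from whole lungs of untreated white leghorn chick embryos at E14, E15, E16 and E18, with 3 samples at each stage and 1 array per sample. Whether a sample was 1 embryo or a pool, and the sex of the embryos, are not given in the sources used here. The replicates are numbered 1 to 3 at each stage, and the spread between them is that of these samples only. The values are log2 signals that the authors normalized by Robust Multi-array Analysis (RMA), a method that corrects background, gives all arrays the same distribution of probe signals and combines the probes of a transcript. A difference of 1 is thus a factor of 2. The transcripts carry Ensembl identifiers without gene names, and the gene table used here holds no such identifier, so none of the members was matched to a gene. Their functions, sequences and positions, and the cell types of the lung by their markers, were not analysed here, and only 2 members are given by identifier.

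During this period the bird lung builds its gas exchange tissue. Air capillaries grow out from the parabronchi, the fine parallel tubes through which air flows, and become interwoven with blood capillaries. The connective tissue between them thins, and the proportions of epithelial, endothelial and mesenchymal cells shift as these cells mature. In RNA of the whole organ, fewer cells of a type and less RNA per cell cannot be told apart.

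The arrays of one stage were most alike at E14 and least alike at E18. Pairs of arrays of the same stage were correlated across transcripts, which are not replicates of each other. Pearson's r was between 0.979 and 0.989 at E14, between 0.92 and 0.987 at E15, between 0.96 and 0.974 at E16 and between 0.741 and 0.909 at E18. The SD of the log2 values of an array, a measure of the range it covers, was lowest on E18 replicate 3 (2.21) and E18 replicate 2 (2.38), followed by E15 replicate 3 (2.44) and E16 replicate 1 (2.51). It was between 2.58 and 2.62 on the others. The number of members and their median fall are also given without the 3 arrays of lowest SD. E18 replicate 1 is then the only array of its stage. The control of random sequence read between 4.40 and 5.17, well below the floor for a member.

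The 200 transcripts had a lower mean at each of the later stages than at E14. Their mean at E14 ran from 9.38 to 14.67 with a median of 11.80. The median at E14 was 11.95 over the 13860 transcripts above the floor and 10.74 over all 21390. For the members the median of the means was 11.54 at E15, 11.23 at E16 and 10.21 at E18. The level at E18 was between 3.47% and 51.2% of that at E14, with a median of 36.3%. The log2 difference between E18 and E14 ran from -4.85 to -0.97 with a median of -1.46. Over all transcripts above the floor the same difference had a median of -0.27, and over all 21390 transcripts one of -0.17. These differences were used to choose the members and are given as a description. By the choice of members no array at E18 overlapped with those at E14, which was also so, in the same direction, for 28.2% of all transcripts.

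On single arrays, the median of the members was 11.82, 11.88 and 11.82 at E14, and 11.51, 11.67 and 11.33 at E15. It was 11.13, 11.26 and 11.34 at E16, and 10.83, 10.34 and 9.86 at E18, in the order of replicates 1 to 3. The arrays at E14 were close to each other, and those at E18 were about 1 log2 unit apart. With each transcript set against its own E14 mean, the median of the members at E18 was -0.99 in replicate 1, -1.47 in replicate 2 and -1.90 in replicate 3. All transcripts above the floor had medians of -0.06, -0.19 and -0.51 on the same 3 arrays. Both medians were highest in replicate 1 and lowest in replicate 3. That the members lay below their own E14 mean was fixed by their choice.

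**Figure D1:**
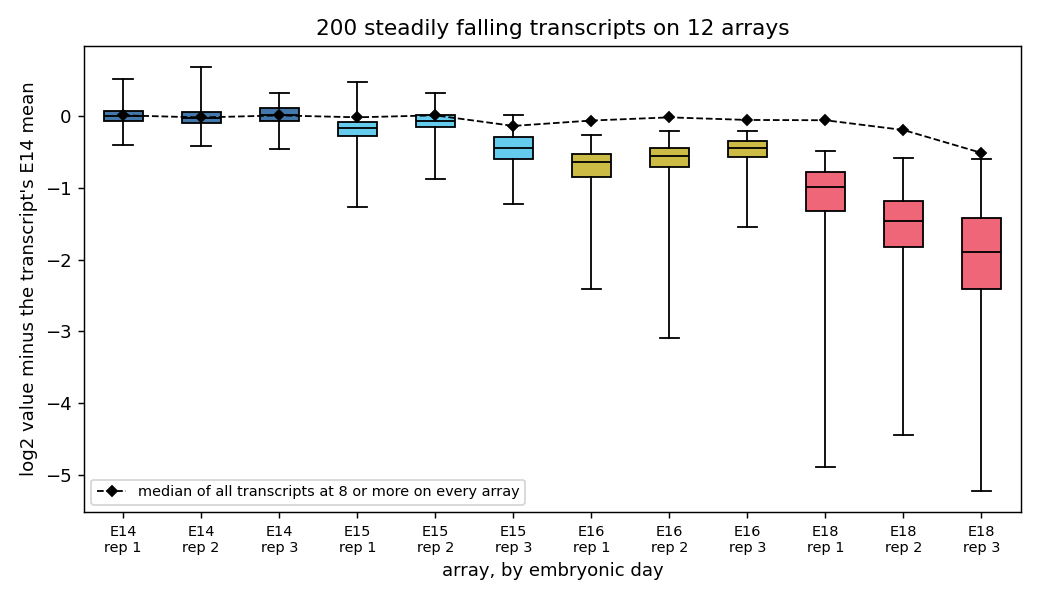
Log2 value of each of the 200 members minus its own E14 mean (vertical axis), for each of the 12 arrays (horizontal axis); boxes span the quartiles, the line is the median, the whiskers reach the lowest and highest member, and diamonds mark the median of the 13860 transcripts above the floor. The box medians lie near 0 at E14, between -0.45 and -0.07 at E15, between -0.64 and -0.45 at E16 and between -1.90 and -0.99 at E18.

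The rank of a member among all transcripts of an array is unaffected by any rescaling that keeps their order. A percentile here is the share of the 21390 transcripts with a value no higher. The median percentile of the members was 65.0 at E14, 61.3 at E15, 56.7 at E16 and 44.1 at E18. For single arrays at E18 it was 51.3, 46.7 and 39.2 in replicates 1 to 3, against 55.5 to 57.9 at E16. In percentiles, 190 of the 200 members kept all 3 groups of arrays apart, with E16 below E14 and E18 below E16, as did 5.04% of all transcripts. The members had been chosen for this order in the log2 values.

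The largest fall was that of ENSGALT00000026050, one of the brightest transcripts of the lung at E14. It read 14.60, 14.54 and 14.74 at E14, 14.27, 14.57 and 14.27 at E15, 12.22, 11.54 and 13.09 at E16, and 9.74, 10.19 and 9.40 at E18. E14 and E15 overlapped, the arrays at E16 were spread over more than 1 log2 unit, and no array at E18 came near those at E16. The mean was 9.78 ± 0.39 at E18 and 14.63 ± 0.10 at E14 (SD, n = 3 each), a log2 difference of -4.85 (standard error 0.34). The level at E18 was 28.9-fold lower than at E14. Its mean percentile was 39.2 at E18 and 98.9 at E14. Nearly all of its first fall came after E15, with 0.26 log2 units lost between E14 and E15 and 2.09 between E15 and E16. The next largest falls among the members were 3.27, 2.98 and 2.91 log2 units.

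ENSGALT00000025758 had the smallest spread within stages, a pooled SD of 0.07 log2 units, against a median of 0.31 over the members. It read 12.60, 12.63 and 12.55 at E14, 12.41, 12.51 and 12.37 at E15, 11.85, 11.97 and 12.06 at E16, and 11.54, 11.58 and 11.53 at E18. The 4 stages did not overlap, and the 3 arrays at E18, which differ in the range they cover, were within 0.1 log2 units. The mean was 11.55 ± 0.03 at E18 and 12.59 ± 0.04 at E14 (SD, n = 3 each), a log2 difference of -1.04 (standard error 0.11), which is 2.06-fold. Without the 3 arrays of lowest SD the log2 difference was -1.05, and that of ENSGALT00000026050 was -4.89, with E18 replicate 1 as the single array of its stage.

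**Figure D2:**
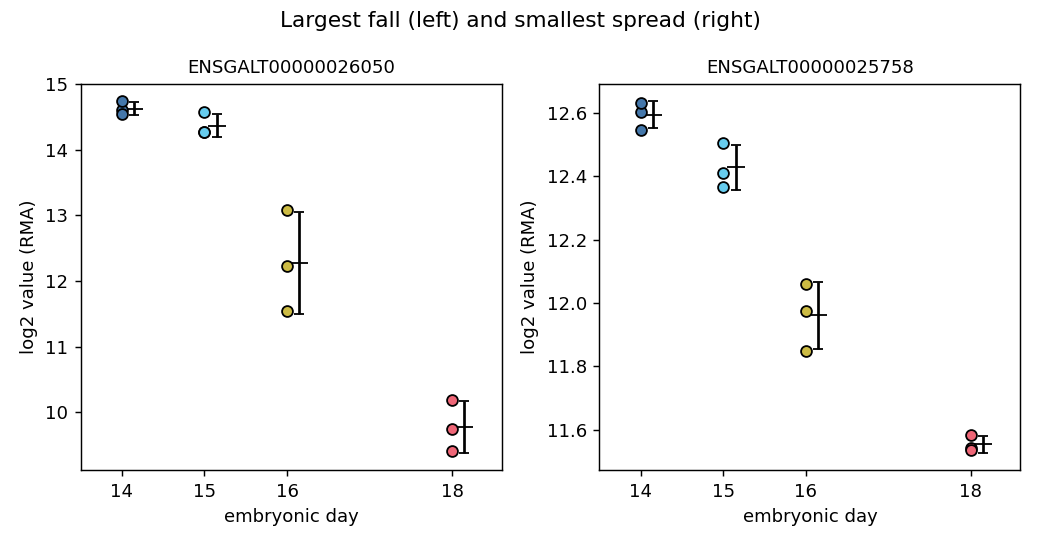
Log2 value (vertical axis, with a separate scale in each panel) by embryonic day (horizontal axis) of ENSGALT00000026050, the member with the largest fall, and ENSGALT00000025758, the member with the smallest spread; circles are the arrays, and dashes with bars are the mean ± SD of 3 arrays. The first stays near 14 until E15 and ends near 10, and the second descends at every stage within about 1 log2 unit.

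The size of the fall differed among the members. It was at least 1 log2 unit in 191 and at least 2 in 28. Among those 28, the median log2 difference from E14 to E16 was -0.97 and that from E16 to E18 was -1.49. Among the other 172 the medians were -0.51 and -0.81. The size also differed between the arrays of E18. On E18 replicate 1 the median difference from the E14 mean was -1.705 in the 28 and -0.923 in the 172. On E18 replicate 3 it was -2.801 in the 28 and -1.801 in the 172. The median of the E14 means was 11.78 in these 28 members and 11.80 in the other 172. The fall of the last members kept was 0.9658, 0.9674 and 0.9713, and that of the first left out was 0.9642, 0.9481 and 0.9472. At the threshold of 0.4 for the fall from E14 to E16, the nearest members had 0.4028, 0.4028 and 0.4047, and the nearest transcripts outside had 0.3984, 0.3991 and 0.3993. For the fall from E16 to E18 the values were 0.4079, 0.4186 and 0.4418 inside, and 0.3858, 0.396 and 0.3984 outside.

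Members were found in each of 5 classes of E14 mean, but not over the whole range above the floor. Their E14 means ran from 9.38 to 14.67, and those of all transcripts above the floor from 8.08 to 15.95. Of the transcripts with an E14 mean of 11 to 12, 67 were members, which is 2.09% of those above the floor. The share was 1.73% between 10 and 11, 1.52% between 12 and 13, 1.13% at 13 and above, and 0.338% between 8 and 10. Between 8 and 10, all transcripts above the floor had a median log2 difference between E18 and E14 of 0.325. In the other classes this median was between -0.438 and -0.203. The reason for the low share between 8 and 10 was not tested. On E18 replicate 1, the array of E18 that covers the widest range, the median difference from E14 of the members was between -1.11 and -0.93 in these 5 classes. That of all transcripts above the floor was between -0.09 and 0.12 in the same classes. The choice of members placed them below E14 on this array too, so nothing is read from this gap.

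Most of the decrease was placed after E16 by the stage means, but not by E18 replicate 1. In the stage means this was not particular to the members. Both falls were used to choose the members and are given as a description. The fall from E14 to E16 had a median of 0.54 and that from E16 to E18 a median of 0.86 log2 units. At E16 a median of 39.8% of the whole fall had been reached. The second fall was the larger one in 169 of the 200 members, or 84.5%. Among the 6575 transcripts above the floor whose means fell at both steps, the share was 79.9%. With a single array in place of the E18 mean, the second fall was the larger one in 51 members with E18 replicate 1, in 153 with replicate 2 and in 167 with replicate 3. These single-array counts were not made for other transcripts, so nothing particular to the members is read from them. With E18 replicate 1 alone the median log2 difference between E18 and E16 was -0.41, and 100 of the 200 members lay at least 0.4 below their E16 mean.

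**Figure D3:**
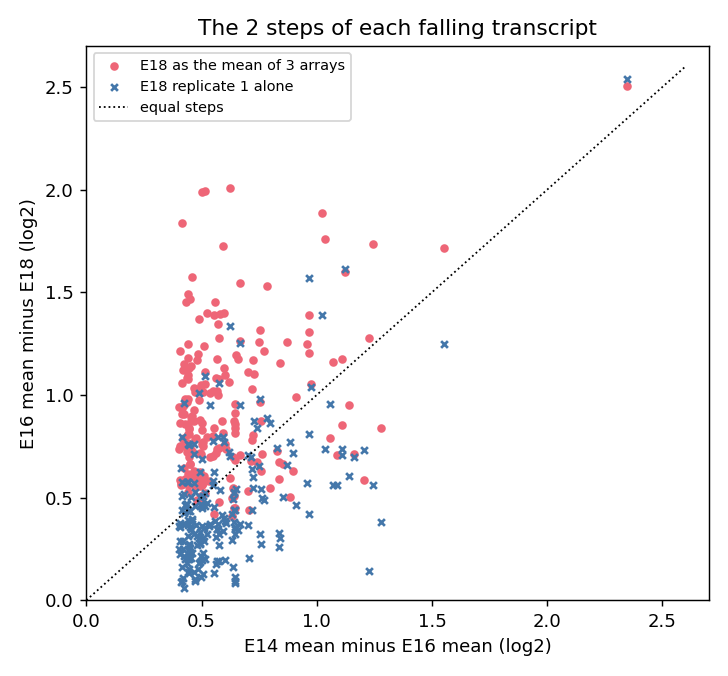
For each member, the fall from E16 to E18 (vertical axis, log2) against the fall from E14 to E16 (horizontal axis, log2), with E18 as the mean of 3 arrays (circles) or as E18 replicate 1 alone (crosses); the dotted line marks equal falls. With the mean, 169 of 200 members lie above the line, and with E18 replicate 1 alone 51 do.

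At E15 the mean of most members was still closer to that of E14 than to that of E16. By the choice of members the E15 mean lay between both, and a median of 40.8% of the fall from E14 to E16 had been reached there. It was nearer to E14 in 134 members, while in 66 the fall from E14 to E15 was larger than that from E15 to E16. All 3 arrays at E15 lay below all 3 at E14 in 59 members, where 6.67% of all transcripts did so. In 78 members all 3 arrays at E16 lay below all 3 at E15, against 7.26% of all transcripts. In 20 members both held, as in 0.827% of all transcripts, and in 83 the arrays at E15 overlapped with both neighbours. The place of the E15 mean was fixed by the choice of members, so these shares are not compared further. No share of all transcripts is given for the 134 or the 83.

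E15 replicate 3 differed from the other arrays of its stage. It was the lowest array of E15 in 164 of the members, or 82.0%, and in 59.7% of the transcripts above the floor. It lay below the highest array of E16 in 114 members, while E15 replicate 1 did so in 16 and E15 replicate 2 in 5. This was not counted for other transcripts, and the choice of members placed the E15 mean above that of E16. With E15 replicates 1 and 2 only, a median of 21.3% of the fall from E14 to E16 had been reached at E15, and the mean was nearer to E14 in 183 members. This mean was below that of E14 in 177 members and above that of E16 in 200. The middle position of E15 thus rested in part on replicate 3.

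**Figure D4:**
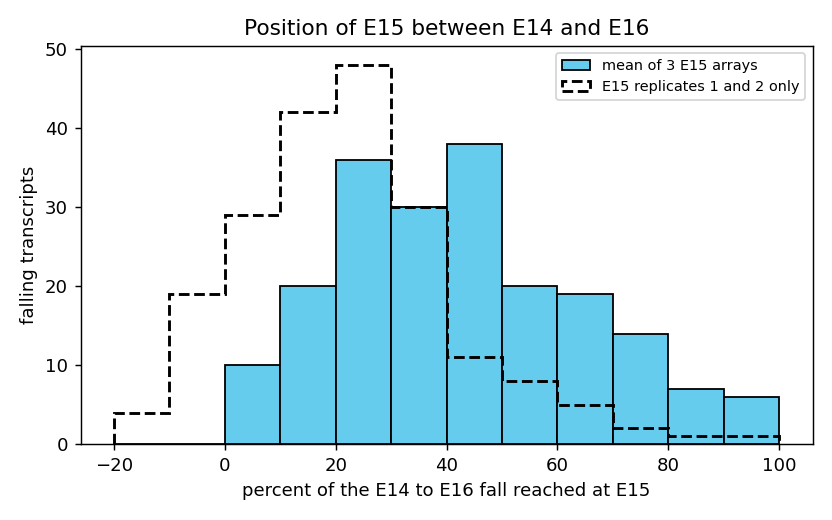
Number of members (vertical axis) by the percent of their fall from E14 to E16 that had been reached at E15 (horizontal axis), from the mean of all 3 E15 arrays (filled bars) or from E15 replicates 1 and 2 only (dashed outline). The median is 40.8% with 3 arrays and 21.3% without replicate 3.

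At E15, E16 and E18 the array with the lowest SD was also most often the lowest one in the members. E16 replicate 1, with the lowest SD of its stage, was the lowest array of E16 in 62.5% of the members and in 35.8% of the transcripts above the floor. E18 replicate 3, with the lowest SD of all arrays, was the lowest of E18 in 73.0% of the members and 70.1% of the transcripts above the floor. E18 replicate 1 was the highest of E18 in 78.0% of the members and in 61.9% of the transcripts above the floor. The median SD of a member was 0.12 at E14, 0.21 at E15, 0.16 at E16 and 0.49 at E18. With the array SD added to the fit as a covariate, the median log2 difference between E18 and E14 was -0.91 in the members and -0.024 over all transcripts. It was negative in all 200 members, but they had been chosen for a fall on the same arrays, so nothing is read from this.

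**Figure D5:**
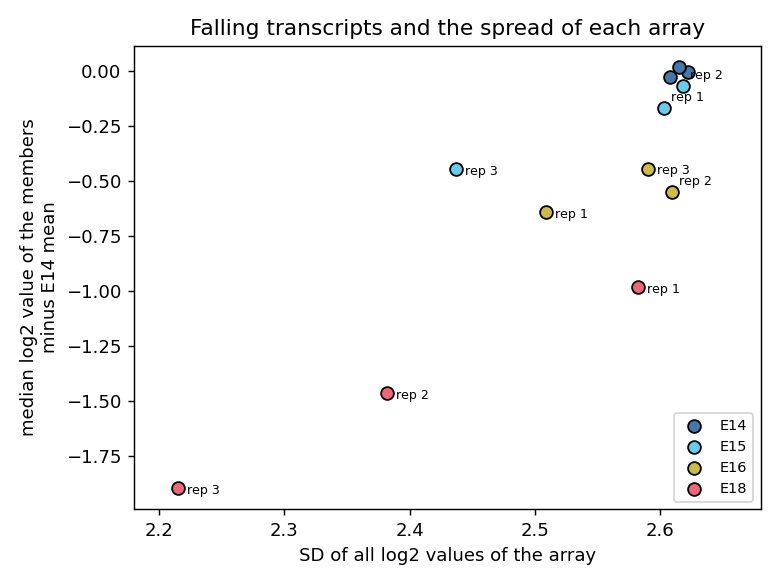
Median over the members of the log2 value minus the E14 mean (vertical axis) against the SD of all log2 values of the array (horizontal axis), 1 point per array, coloured by stage. E18 replicate 1 covers a range close to that of the arrays at E14 and lies at -0.99, while E18 replicates 2 and 3, with lower SDs, lie at -1.47 and -1.90.

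In the limma fit of all arrays, 199 members were lower at E18 than at E14 at an adjusted p of at most 0.05, where 12.6% of all transcripts were called lower. Since the same arrays chose the members, nothing is read from these counts. The number was 128 without E14 replicate 3, where 2.36% of all transcripts were called lower. It was 116 with the array SD as a covariate (1.8% of all transcripts) and 33 in a fit restricted to these 2 stages (0.468% of all transcripts). The adjusted p for this difference was 0.000271 for ENSGALT00000026050 and 0.00104 for ENSGALT00000025758 in limma. Both were picked by their fall or their spread on the same arrays. The adjusted p values given for them are thus a description and no evidence of a change. In the fit restricted to E18 and E14, ENSGALT00000025758 had an adjusted p of 0.0528.

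The moderated F-test across the stages called 118 members, where 2.24% of all transcripts were called and lower at E18. The analysis of variance named in the methods called fewer, 101, where 2.32% were called and lower. The F-test called 199 members without E18 replicate 1, but 21.8% of all transcripts were then called and lower. When a single array was dropped, it called between 43 and 77 if that array was from E14 or was E15 replicate 1 or 2, E16 replicate 2 or E18 replicate 2. The share of all transcripts called and lower was then between 0.369% and 0.832%.

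Between E14 and E16, between E16 and E18, and between E15 and either of its neighbours, few or no members passed. Limma called 1 member lower at E16 than at E14 (0.00935% of all transcripts), which was ENSGALT00000026050 with an adjusted p of 0.0493. It called 9 lower at E18 than at E16 (0.122% of all transcripts). For E16 against E14 the number was 15 without E18 replicate 3, where 0.323% of all transcripts were called lower. It was 3 without E16 replicate 3 (0.0421% of all transcripts) and 0 without any 1 of the other arrays except E18 replicate 1. For E18 against E16 the number was 186 when E18 replicate 1 was dropped, where 25.6% of all transcripts were called lower. It was 0 to 5 when the dropped array was from E14 or E16 or was E15 replicate 1 or 2 or E18 replicate 2. The share of all transcripts called lower was then between 0.00468% and 0.131%. Between E15 and E14, 1 member had an unadjusted p under 0.05 in limma, as did 202 of all 21390 transcripts in either direction. After adjustment limma called 0 members (0% of all transcripts). Between E16 and E15 it also called 0 members lower (0% of all transcripts), with 49 under 0.05 unadjusted (1.34% of all transcripts), and 1 without E16 replicate 3. Fits of only the 2 stages compared called 0 in both.

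The membership itself depended on scaling and on single arrays. Without E18 replicate 1, 361 transcripts met the conditions, 197 of them members. Without the 3 arrays of lowest SD, which leaves only replicate 1 at E18, 200 transcripts did, of which 90 were members. The median log2 difference between E18 and E14 over all 200 members was then -0.99. After quantile normalization 138 of the 200 members still met all conditions, after median centring 152 and after cyclic loess normalization 93. All 200 had a lower mean at E18 than at E14 after each of the 3, with medians of -1.42, -1.34 and -1.08 in the same order. Over all transcripts the medians were -0.152, -0.046 and 0.004. The members had been chosen for their fall in the deposited values of the same arrays, so their direction is no test of the scaling. The conditions turned round, for transcripts rising at each stage, were met by 114 transcripts in the deposited values, where 214 fell. After cyclic loess 104 fell and 262 rose, after quantile normalization 146 fell and 165 rose, and after median centring 162 fell and 161 rose. The excess of falling over rising transcripts was thus not kept under other scalings.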

How the data were processed

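Total RNA of whole chick lung was converted to cDNA, labelled and hybridized to custom NimbleGen arrays with 1 colour. The authors normalized the scans by RMA in DNASTAR ArrayStar and deposited log2 values for 21390 transcripts and 1 random control. The version, Ensembl release and probes per transcript are not given in the sources used here. RMA equalizes probe signals, so a shift shared by most transcripts is partly removed. The number of arrays limits the precision. Stage means were estimated from the 12 arrays together, with no filter on dim transcripts, in R 4.3.3 with limma 3.58.1, which left 8 residual degrees of freedom. Contrasts and the moderated F-test were adjusted over all transcripts by Benjamini-Hochberg with a threshold of 0.05. The fit was also run on simulated data. The outcome of that run is not given, so it is no support for the calls. Python 3.11.15 with matplotlib 3.10.9 drew the plots. The members and the tests were chosen with earlier results of these data known. Members were named by rule, as the one with the largest fall and the one with the smallest pooled SD. Gene and marker lists had been prepared but were not used, since no transcript could be matched to a symbol. The alternatives were 3 scalings, no dim transcripts, a variance trend, a replicate block, the one-way ANOVA, fits of only the stages compared, array SD as a covariate, arrays left out and other limits of the rule. The use of single E18 arrays and the scalings of the rising rule were added after the data were seen.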

Additional observations from a re-analysis of the deposited data

How the results depend on the processing

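The median log2 difference of the members between E18 and E14 was -1.461 in the deposited values and -1.077 after cyclic loess. Without the 3 arrays of lowest SD, which leaves only replicate 1 at E18, it was -0.985. With 1 array left out it ran from -1.649 to -1.235, where the choice of members fixes its direction. Over all transcripts this median was -0.171 in the deposited values and 0.004 after cyclic loess. Of all calls between E14 and E18, 35.2% were higher at E18 in the deposited values, 51.9% after cyclic loess and 45.4% after median centring.

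The number of transcripts that met the conditions, 214, was 104 after cyclic loess, 412 with steps of at least 0.3 and 112 with steps of at least 0.5. With 1 array left out it ran from 192 to 361. Under the conditions turned round, cyclic loess gave 262. With E18 replicate 1 alone, 51 members fell more after E16.

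Of the members called across the stages, 118 (2.24% of all transcripts), there were 60 with array SD as a covariate (0.771%). With 1 array left out there were 43 to 199, where 0.369% to 21.8% of all transcripts were called and lower. Between E14 and E18 the number, 199 (12.6% of all transcripts), was 116 with the covariate (1.8%) and 33 with only the stages compared (0.468%). It was 128 to 200 with 1 array left out, where 2.36% to 33.1% of all transcripts were called lower. Between E14 and E16 it was 1, and became 2 after quantile normalization, 9 after cyclic loess, 5 after median centring, 9 without the dimmest transcripts, 6 with an intensity trend, 19 with the covariate, 0 with only the stages compared and 76 without the 3 arrays of lowest SD. It was 0 to 15 with 1 array left out. Between E16 and E18 it was 9 (0.122% of all transcripts), and became 0 with only the stages compared (0%) and with the covariate (0.014%). It was 17 after cyclic loess, 21 without the dimmest transcripts and 15 with an intensity trend, where the share is again not given. With 1 array left out it was 0 to 186, where 0.00468% to 25.6% of all transcripts were called lower. Between E15 and E16 it was 0 to 1 with 1 array left out, and between E14 and E15 it was 0. The shares of all transcripts moved with the setting too, so nothing is read about the members from these counts. The cause of these differences was not tested.

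The samples share only a replicate number. Of 18 pairs of arrays with the same number, 3 had a correlation of their deviations from the stage means over 0.1. The correlations of the 18 pairs ran from -0.616 to 0.685, and those of pairs with different numbers from -0.715 to 0.701. Of the 12 arrays, 2 matched best with an array of their own number. With the replicate number as a block, 58 members were called across the stages and 197 between E14 and E18. The block fit called 0 between E14 and E16 and 1 between E16 and E18. What share of all transcripts the block fit called is not given. Without that share, its counts cannot tell whether a loss was particular to the members.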
